A study of Mus musculus with 20 samples.

Results

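The 10 heat shock chaperone genes described here were found by symbol among the 45700 genes of the deposited expression table. All 10 were listed, and 9 of them were among the 15247 genes whose mean over the 20 libraries reached 1 FPKM (a fragment count scaled to exon length and library size), the level from which genes were tested. Hspa1a, with a mean of 0.51 FPKM, lay below that level, and its fold changes come from a separate fit over genes averaging 0.1 FPKM or more. By what is known of their control, 6 are heat-inducible cytosolic chaperones (Hspa1a, Hspa1b, Hspb1, Dnajb1, Hsph1 and Hsp90aa1), 2 are constitutive cytosolic chaperones (Hspa8 and Hsp90ab1) and 2 are mitochondrial chaperonins (Hspd1 and Hspe1).

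Chaperones bind unfolded or misfolded proteins and help them to fold, to be held in solution or to be passed on for degradation. When unfolded protein builds up, heat shock factor 1 leaves its chaperone partners, forms trimers and binds heat shock elements, arrays of inverted nGAAn units in promoters, and the inducible genes are transcribed. HSP70 proteins fold their clients with J-domain proteins such as DNAJB1 and exchange factors such as HSPH1, HSP90 proteins mature kinases and receptors, small heat shock proteins such as HSPB1 hold aggregating proteins, and HSPD1 with its lid HSPE1 folds imported proteins in mitochondria. In the brain, the constitutive HSP70 and HSP90 transcripts are abundant, and neurons are known to induce the stress-inducible HSP70 genes only weakly.

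Whole brains came from “Taiwanese” mice, a severe model of spinal muscular atrophy (SMA), on a congenic FVB background. SMA mice (Smn-/-; SMN2tg/0) lacked murine Smn and carried the human SMN2 transgene, and phenotypically normal heterozygous littermates (Smn-/+; SMN2tg/0), which carried the transgene too, were the controls. At the early-symptomatic stage (postnatal day 5) there were 2 libraries per genotype and fraction, and at the late-symptomatic stage (postnatal day 7) there were 3. The fractions sequenced were total cytoplasmic RNA, pooled from all sucrose fractions (the transcriptome), and polysomal RNA, pooled from the polysomal fractions only (the translatome), 20 libraries in all. The Smn allele is null in every cell of the body, and the libraries are of whole brain, so that fewer cells of a type and less RNA per cell cannot be told apart.

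Smn1 FPKM values of the genotypes overlapped in every stage and fraction. In early-symptomatic total RNA they were 9.71 and 8.92 FPKM in controls and 9.55 and 10.09 FPKM in SMA, and a value summed over the whole gene does not check the labels of a null allele. The neuronal gene Snap25 ranged from 182 to 417 FPKM, which fits the labelled tissue. The depth behind an FPKM value is unknown, because the table holds no counts.

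The genomic sequence in front of the genes was searched for the exact letters of heat shock element units, and 4 of the members plus the second HSP70 copy are printed. Windows from 250 bases before to 50 bases after an annotated start were available from RefSeq (GRCm38.p6) for 7 of the 10 members: Hspa1a, Hspa1b, Hspb1, Dnajb1, Hsph1, Hspd1 and Hspe1. They were searched for the letters GAANNTTC and TTCNNGAA, which are 2 inverted units each and read the same on both strands. Of 32851 such windows over all genes, 7.86% held GAANNTTC, 8.52% held TTCNNGAA and 15.1% held either. A run of 3 units, in which both pairs overlap and share the middle unit, was found in 0.603%. Capitals mark the matches in the following sequences, each read 5′ to 3′ on the strand of its gene. Those of Hspa1a (chr17:34972157-34972406, minus strand) and Hspa1b (chr17:34959239-34959488, minus strand) are the 250 bases before the start, differ at 3 of 250 bases and hold GAAGATTC at position -104 from the start.
Hspa1a: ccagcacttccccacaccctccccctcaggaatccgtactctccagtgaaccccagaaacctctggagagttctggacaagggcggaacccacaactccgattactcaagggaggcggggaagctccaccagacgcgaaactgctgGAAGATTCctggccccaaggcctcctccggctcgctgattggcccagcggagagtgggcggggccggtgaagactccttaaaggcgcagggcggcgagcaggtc
Hspa1b: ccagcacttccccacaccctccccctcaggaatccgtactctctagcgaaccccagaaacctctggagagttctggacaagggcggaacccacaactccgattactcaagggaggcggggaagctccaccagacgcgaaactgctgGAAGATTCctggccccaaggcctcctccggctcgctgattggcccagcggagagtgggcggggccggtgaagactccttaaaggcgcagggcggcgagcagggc
The sequence of Hsph1 (chr5:149636337-149636586, minus strand) holds TTCTCGAA at position -33 from the start, and its window goes on to TTCTGGAA at 36 and GAAAGTTC at 41 after the start, which overlap as a run of 3 units and are not printed. The sequence of Dnajb1 (chr8:83607925-83608174, plus strand) holds neither pair in its 250 bases.
Hsph1: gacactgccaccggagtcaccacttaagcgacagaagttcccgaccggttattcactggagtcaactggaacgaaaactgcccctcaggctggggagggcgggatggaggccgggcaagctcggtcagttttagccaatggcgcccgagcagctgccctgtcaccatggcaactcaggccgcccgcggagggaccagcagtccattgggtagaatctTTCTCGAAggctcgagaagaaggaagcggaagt
Dnajb1: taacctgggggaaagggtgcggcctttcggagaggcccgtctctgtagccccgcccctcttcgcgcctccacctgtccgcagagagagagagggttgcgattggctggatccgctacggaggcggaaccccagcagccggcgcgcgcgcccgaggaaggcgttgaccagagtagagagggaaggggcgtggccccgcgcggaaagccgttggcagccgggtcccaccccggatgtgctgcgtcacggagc
The 100 bases of Hspe1 (chr1:55088028-55088127, plus strand) lie from -120 to -21 of its start and hold 3 overlapping pairs, beginning at -89, -84 and -79.
Hspe1: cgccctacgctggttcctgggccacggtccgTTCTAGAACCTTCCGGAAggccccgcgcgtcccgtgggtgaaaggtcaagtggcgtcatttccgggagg
Hspd1 lies on the opposite strand, and the same array stood in one of its windows, read from the other side. Hspb1 held GAAGTTTC and GAACCTTC, at positions -117 and -97 from its start. A match is a description of letters and does not show that a factor bound there. The search took exact letters in short windows only, so the lack of a match, as in Dnajb1, does not show that elements are absent.

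The members spanned about 3 orders of magnitude in level, and the inducible HSP70 genes were the lowest. Hsp90aa1 (chr12:110690605-110702728) had a mean of 786 FPKM over the 20 libraries, Hsp90ab1 (chr17:45567775-45573271) 709.9 FPKM and Hspa8 (chr9:40800984-40805200), the constitutive HSP70, 579 FPKM. They ranked 94th, 105th and 136th among the 15247 genes tested, and the ranges of neighbours in that order overlapped. Hspe1 had a mean of 163 FPKM and Hspd1 88.1 FPKM (listed by the authors at 1 merged locus, chr1:55077835-55091307). Next came the HSP110 gene Hsph1 (chr5:149614287-149636376) with 54.8 FPKM and the HSP40 gene Dnajb1 (chr8:83608175-83611902) with 23.1 FPKM, whose ranges did not overlap. The small heat shock protein gene Hspb1 (chr5:135887919-135889563) had a mean of 3.13 FPKM, Hspa1b (chr17:34956436-34959238) 1.94 FPKM and Hspa1a (chr17:34969190-34972156) 0.51 FPKM. Together, Hspa1a and Hspa1b came to between 0.297% and 0.557% of the FPKM of Hspa8 in the same library, with a median of 0.421%. No member was listed at 0 in any library.

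**Figure D1:**
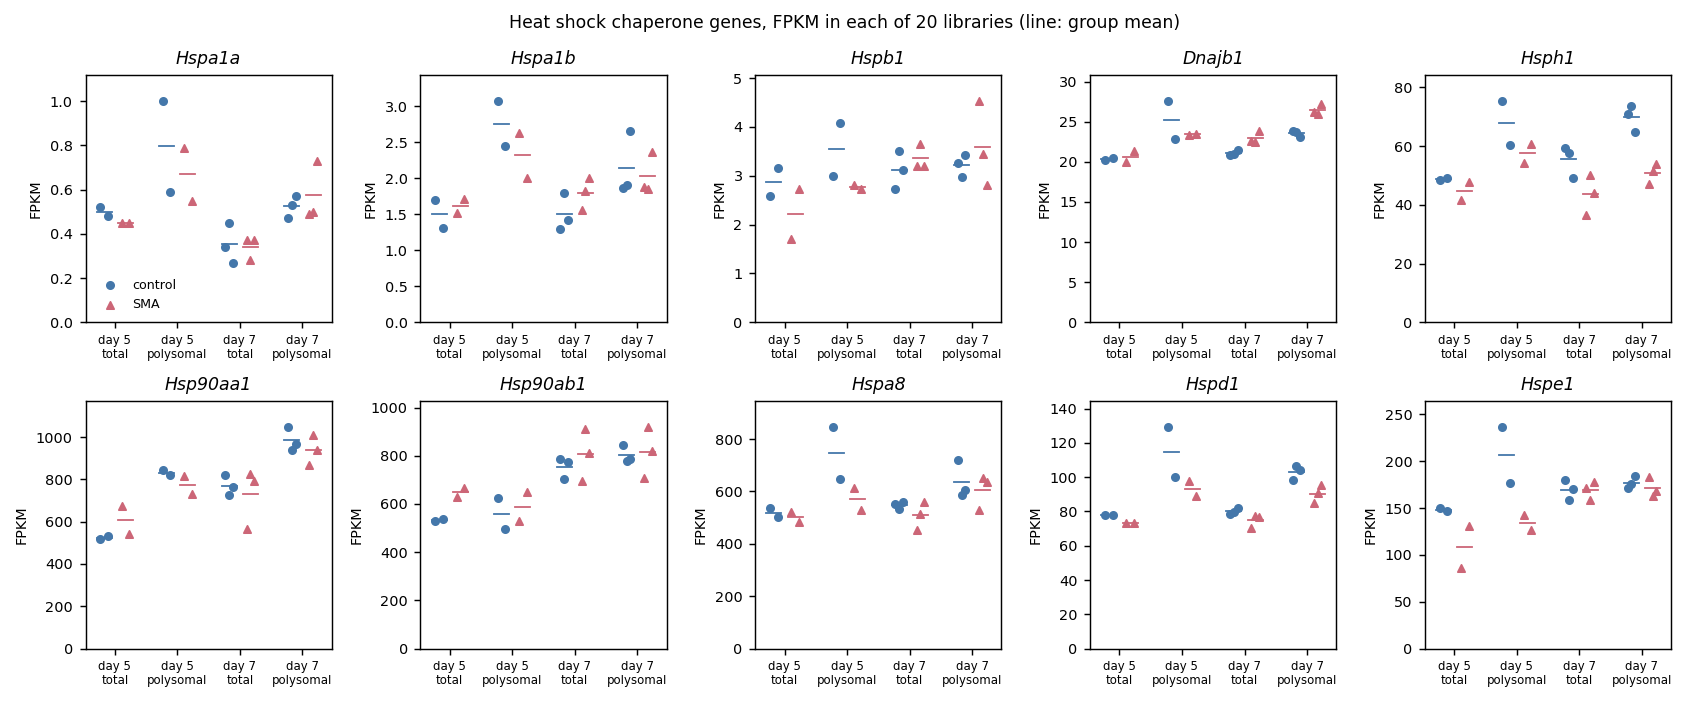
FPKM of each of the 10 genes (vertical axes, linear from 0) in the 20 libraries, grouped along the horizontal axis by postnatal day and RNA fraction. Points are single libraries, circles control and triangles SMA, and short lines are group means. Hsph1 in day 7 polysomal RNA lay between 64.8 and 73.7 FPKM in controls and between 47.2 and 53.9 FPKM in SMA, and Hspa1a did not exceed 1 FPKM in any library.

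Near-identical copies limit how exactly some of these levels can be assigned. Of the 100-base windows of its longest transcript, Hspa1a shared 47.1% with Hspa1b, and Hspa1b shared 49.9% with Hspa1a, so the division of reads between these copies is uncertain. Shares with processed copies or other genes were 47.5% for Hsp90aa1, 42.7% for Hspb1, 32.1% for Hspa8 and 26.9% for Hspd1. For Hspe1 the share was 0.347%, and Dnajb1, Hsph1 and Hsp90ab1 shared none. Hspd1 and Hspe1 are transcribed away from each other within their merged locus, Hspa8 overlaps small nucleolar RNA genes and Hspa1a overlaps Gm20481.

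The first comparison asked whether chaperone RNAs differed between SMA and control brains at the early-symptomatic stage. The member called was Hspe1, the HSP10 lid of the mitochondrial chaperonin, which was lower in SMA. In polysomal RNA, Hspe1 was at 236 and 176 FPKM in the controls and at 142 and 126 FPKM in SMA. Its log2 fold change, on the scale of log2(FPKM + 0.1) used for every fold change here, was -0.61 (SE 0.19, limma adjusted p = 0.393). In total RNA it was at 150.1 and 147 FPKM in the controls and at 86.6 and 131 FPKM in SMA, with a log2 fold change of -0.48 (SE 0.24, adjusted p = 0.551). Every SMA library was thus below every control library in both fractions, with the low total value resting on replicate 1. Without that library the total log2 fold change was -0.18.

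Hspe1 was the only one of the 9 tested members past an unadjusted p of 0.05 in early polysomal RNA, where 6.82% of all genes were called lower and 12.5% in either direction. No member was called in early total RNA, where 8.25% of all genes were. The Hspe1 call ended without a filter on low values (-0.61), and when control replicate 1 (-0.40), SMA replicate 1 (-0.69) or SMA replicate 2 (-0.52) was left out. Fold changes of all genes at this stage moved with transcript length: those with a longest transcript of up to 1835 nt had a median log2 fold change of -0.17 in total and -0.13 in polysomal RNA, and those of 4673 nt or more had 0.17 and 0.15. The longest Hspe1 transcript has 964 nt, and after a correction for length its log2 fold change was -0.25 in total RNA and -0.43 in polysomal RNA. The genotypes did not overlap for 5 of 9 members in either fraction, against 47.6% of all genes in total and 50.5% in polysomal RNA, and exact permutation tests of 2 against 2 libraries cannot go below p = 0.333.

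The other members did not pass the test at day 5. Hsp90ab1, the constitutive cytosolic HSP90, was at 528 and 538 FPKM in control total RNA and at 631 and 666 FPKM in SMA (log2 fold change 0.28, SE 0.13, adjusted p = 0.551). In polysomal RNA the genotypes overlapped, with Hsp90ab1 at 623 and 497 FPKM in controls and at 528 and 650.0 FPKM in SMA. Hspa8 in polysomal RNA was at 845 and 646 FPKM in controls and at 614 and 531 FPKM in SMA (log2 fold change -0.37, SE 0.23). Hsph1 was at 48.5 and 49.1 FPKM in control total RNA and at 41.5 and 47.6 FPKM in SMA (-0.13, SE 0.09). The inducible HSP70 genes were low in both genotypes. Hspa1b was at 1.70 and 1.31 FPKM in control total RNA and at 1.51 and 1.71 FPKM in SMA, and Hspa1a was at 0.52 and 0.48 FPKM in controls and 0.45 FPKM in both SMA libraries. Over the 9 members the median log2 fold change was -0.05 in total and -0.25 in polysomal RNA, beside 0.01 and -0.01 over all genes tested.

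At the late-symptomatic stage 3 members were called. Hsph1, the HSP110 exchange factor of HSP70, was lower in SMA, Hspd1, the HSP60 chaperonin, was lower, and Dnajb1, the J-domain partner of HSP70, was higher. In polysomal RNA, Hsph1 was at 70.8, 73.7 and 64.8 FPKM in controls and at 47.2, 51.5 and 53.9 FPKM in SMA. The group means were 69.8 ± 4.53 FPKM (SD, n = 3) and 50.9 ± 3.37 FPKM (SD, n = 3), a log2 fold change of -0.46 (SE 0.07, limma adjusted p = 0.186). The lowest control library was more than 10 FPKM above the highest SMA library. In total RNA, Hsph1 was at 59.5, 57.8 and 49.2 FPKM in controls and at 36.6, 50.2 and 44.1 FPKM in SMA, where 1 pair of libraries overlapped and the log2 fold change of -0.35 (SE 0.14, adjusted p = 0.524) did not pass.

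Dnajb1 differed little in size but with a small spread. In late polysomal RNA it was at 23.8, 23.7 and 23.2 FPKM in controls and at 26.2, 26.0 and 27.2 FPKM in SMA, a log2 fold change of 0.17 (SE 0.03, adjusted p = 0.248). In late total RNA it was at 20.8, 21.0 and 21.5 FPKM in controls and at 22.6, 22.5 and 23.9 FPKM in SMA, a log2 fold change of 0.12 (SE 0.04, adjusted p = 0.427). All 3 SMA libraries were above all 3 control libraries in both fractions. The total RNA call ended with a filter at above 0 FPKM in every library, with robust variance, in 1 model over all 20 libraries (0.12 in each), and without control replicate 1 (0.11), control replicate 2 (0.12) or SMA replicate 3 (0.10).

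Hspd1 in late polysomal RNA was at 98.5, 106 and 104 FPKM in controls and at 85.1, 90.6 and 95.6 FPKM in SMA, a log2 fold change of -0.19 (SE 0.06, adjusted p = 0.374). Its total RNA was at 78.6, 79.7 and 82.0 FPKM in controls and at 70.4, 77.5 and 76.5 FPKM in SMA, without overlap but not past the test (log2 fold change -0.10, SE 0.05, adjusted p = 0.557). The polysomal call ended with libraries scaled to equal medians (-0.18) and without control replicate 2 (-0.16), control replicate 3 (-0.18) or SMA replicate 2 (-0.19). Its partner Hspe1, the member that fell at day 5, was at 171, 176 and 184 FPKM in late control polysomal RNA and at 183, 163 and 168 FPKM in SMA, with overlapping groups.

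In all, 3 of 9 tested members were past an unadjusted p of 0.05 in late polysomal RNA and 1 of 9 in late total RNA, against 10.7% and 9.54% of all genes. No member passed an adjusted p of 0.05 in any of the 4 genotype comparisons, against 0.164% and 0.649% of all genes in early total and polysomal RNA and 0.111% and 0.0918% in late total and polysomal RNA. The genotypes did not overlap for 3 of 9 members in polysomal and 2 of 9 in total RNA, against 16.1% and 15% of all genes, and 3 against 3 libraries cannot give an exact permutation p below 0.1. Hspa1b was at 1.30, 1.80 and 1.42 FPKM in late control total RNA and at 1.56, 1.82 and 2.00 FPKM in SMA, and Hspa1a at 0.34, 0.45 and 0.27 FPKM and at 0.37, 0.28 and 0.37 FPKM. Neither of the stress-inducible HSP70 genes passed the test, and their groups overlapped in both late fractions. Hspb1, Hsp90aa1, Hsp90ab1 and Hspa8 overlapped in both late fractions as well, with log2 fold changes between -0.11 and 0.13. The median log2 fold change over the 9 members was -0.00 in total and -0.06 in polysomal RNA, beside -0.00 in each over all genes.

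**Figure D2:**
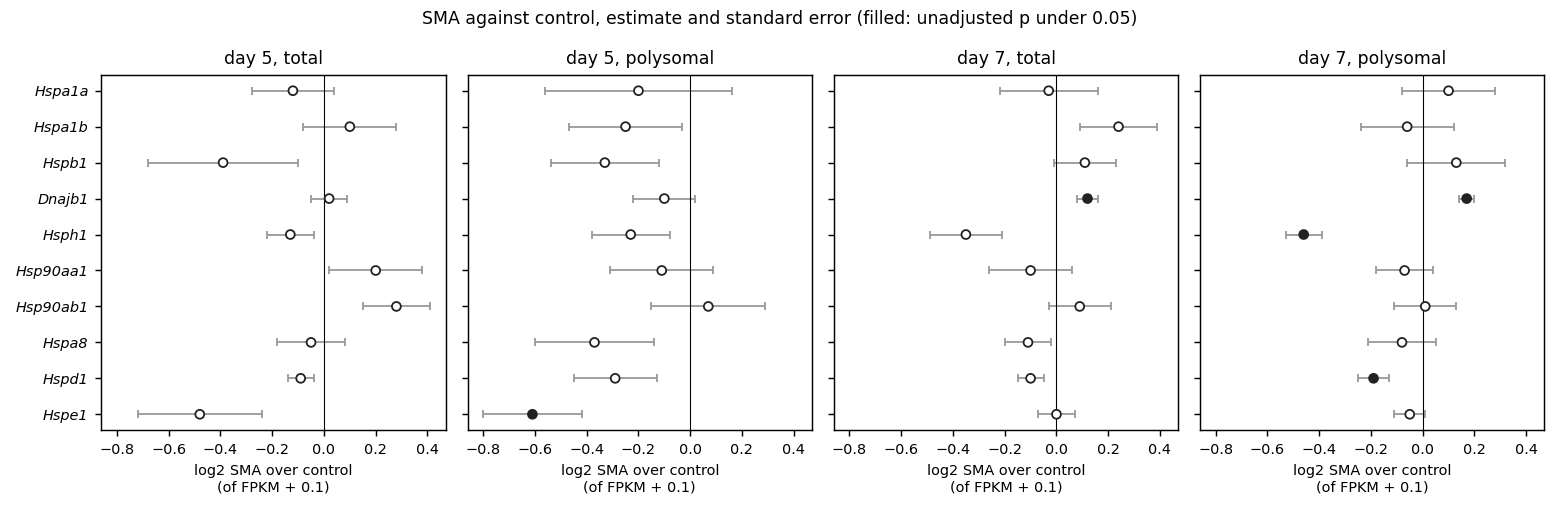
Log2 fold change of SMA over control (horizontal axes, on log2(FPKM + 0.1)) for the 10 genes, with 1 panel for each day and RNA fraction. Points are estimates and bars are standard errors, and filled points are past an unadjusted p of 0.05: Hspe1 at day 5 in polysomal RNA (-0.61), Dnajb1 at day 7 in both fractions (0.12 and 0.17), and Hsph1 (-0.46) and Hspd1 (-0.19) at day 7 in polysomal RNA.

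Whether the genotype difference itself changed between the stages was tested as an interaction. It was past an unadjusted p of 0.05 for Hspe1 in total RNA (log2 difference 0.48, day 7 minus day 5, SE 0.21, limma adjusted p = 0.406) and in polysomal RNA (0.56, SE 0.21, adjusted p = 0.27), and for Dnajb1 in polysomal RNA (0.27, SE 0.10, adjusted p = 0.266). Those are 1 of 9 members in total and 2 of 9 in polysomal RNA, against 11.8% and 14.8% of all genes. The total RNA call of Hspe1 ended on leaving out any of 6 of the 10 replicates, was 0.18 without early SMA replicate 1 and 0.43 to 0.48 without the other 5, and leaving out early control replicate 1 ended both polysomal calls (0.35 for Hspe1 and 0.13 for Dnajb1). For Hsph1 the interaction was -0.22 (SE 0.19) in total and -0.23 (SE 0.19) in polysomal RNA and did not pass, so its late decrease was not shown to differ from day 5.

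The next comparison was of translation efficiency (TE), the polysomal over the total RNA of a gene. No member had a change in TE between SMA and control past an unadjusted p of 0.05 at either stage, against 2.32% of all genes at day 5 and 2.07% at day 7. The changes lay between -0.34 (Hspa1b, SE 0.30) and 0.06 (Hspb1, SE 0.38) at day 5 and between -0.30 (Hspa1b, SE 0.24) and 0.04 (Dnajb1, SE 0.05) at day 7 among the tested members, with limma adjusted p = 1 for each. Hsph1, whose late polysomal decrease passed the test, had a late change in TE of -0.10 (SE 0.17). Its total and polysomal RNA thus changed by amounts that this design did not separate.

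Irrespective of genotype, most chaperone RNAs had higher values in polysomal than in total RNA. At day 5, 6 of 9 members were higher in polysomal RNA at an unadjusted p under 0.05, against 18.7% of all genes and 21% of the protein-coding genes, and 4 of 9 passed adjustment, against 5.64% of all genes. At day 7 it was again 6 of 9, against 25.5% of all and 28.9% of protein-coding genes, with 4 of 9 past adjustment, against 18%. They were Hspa1b, Dnajb1, Hsph1, Hsp90aa1, Hspa8 and Hspd1 at both stages, and no member was lower. The median log2 difference over the members was 0.40 at day 5 and 0.23 at day 7, beside 0.04 and 0.07 over the 13101 protein-coding genes tested.

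Hspd1 and Dnajb1 had the smallest errors. Hspd1 was at 78.6, 79.7 and 82.0 FPKM in late control total RNA and at 98.5, 106 and 104 FPKM in the polysomal RNA, and its log2 difference over both genotypes was 0.32 (SE 0.04, limma adjusted p = 0.000334) at day 7 and 0.45 (SE 0.09, adjusted p = 0.0383) at day 5. For Dnajb1 it was 0.18 (SE 0.02, adjusted p = 0.000548) at day 7 and 0.24 (SE 0.07, adjusted p = 0.0765) at day 5, where its call ended without control replicate 1 (0.17), SMA replicate 1 (0.22) or SMA replicate 2 (0.26). For Hsph1 it was 0.28 (SE 0.08, adjusted p = 0.0301) and 0.42 (SE 0.10, adjusted p = 0.0474). The fractions were matched by replicate number as a description, since nothing shows that they came from the same brain. The log2 ratio was above 0 in 10 of 10 replicate numbers for Hspa1a, Hspa1b, Dnajb1, Hsph1, Hsp90aa1, Hspa8 and Hspd1. How many of all genes reached 10 of 10 is not given here, so this tally does not set the members apart.

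The inducible HSP70 genes also had higher polysomal values. Hspa1b was at 1.70 and 1.31 FPKM in early control total RNA and at 3.07 and 2.44 FPKM in polysomal RNA, with a log2 difference of 0.66 (SE 0.15, adjusted p = 0.0475) at day 5 and 0.32 (SE 0.12, adjusted p = 0.078) at day 7. The early call of Hspa1b ended without SMA replicate 1 (0.52) and the late call without control replicate 1 (0.32) or 3 (0.22) or SMA replicate 1 or 3 (0.30 each). Hspa1a differed by 0.50 (SE 0.20, adjusted p = 0.159) at day 5 and by 0.54 (SE 0.13, adjusted p = 0.0175) at day 7, in the fit of genes averaging 0.1 FPKM or more, where 13.2% and 18% of genes were called higher. Hspa8, the constitutive counterpart, differed by 0.35 (SE 0.12, adjusted p = 0.111) and 0.23 (SE 0.08, adjusted p = 0.053), its early call ended on leaving out any of the 4 early replicates (0.28 to 0.42), and its late call ended without control replicate 1 (0.19) or SMA replicate 2 (0.21).

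Hspb1, Hspe1 and Hsp90ab1 did not pass at either stage. Their log2 ratios were above 0 in 6, 7 and 7 of 10 replicate numbers. Hspe1 differed by 0.40 (SE 0.17) at day 5 and 0.04 (SE 0.04) at day 7, and Hspb1 by 0.31 (SE 0.19) and 0.06 (SE 0.11).

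**Figure D3:**
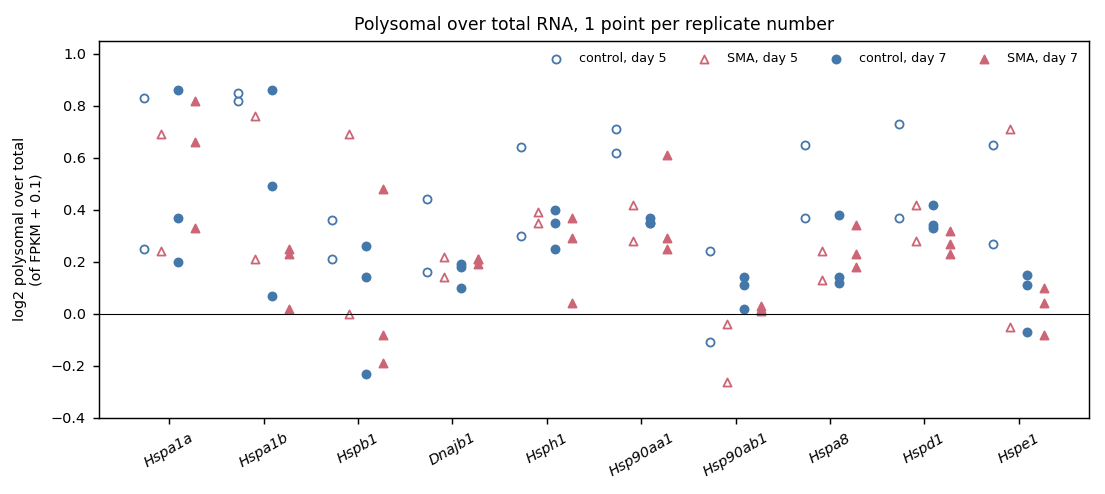
Log2 of polysomal over total RNA (vertical axis, on log2(FPKM + 0.1)) for the 10 genes, with 1 point for each of the 10 replicate numbers, which match libraries by number only. Open symbols are day 5, filled symbols day 7, circles control and triangles SMA. Hspd1 lay between 0.23 and 0.73, Hsp90aa1 between 0.25 and 0.71, and Hsp90ab1 on both sides of 0, between -0.26 and 0.24.

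The HSP90 pair, whose proteins are close relatives, separated between the fractions. In total RNA the inducible Hsp90aa1 and the constitutive Hsp90ab1 had nearly equal FPKM, with ratios from 0.814 to 1.07 over 10 libraries. In polysomal RNA the ratio was from 1.10 to 1.65, above every total library. At day 5 Hsp90aa1 was at 516 and 534 FPKM in control total RNA and at 842 and 819 FPKM in control polysomal RNA, while Hsp90ab1 was at 528 and 538 FPKM and at 623 and 497 FPKM. The log2 difference of polysomal over total RNA was 0.51 (SE 0.11, limma adjusted p = 0.0446) at day 5 and 0.37 (SE 0.10, adjusted p = 0.0179) at day 7 for Hsp90aa1, and -0.04 (SE 0.12) and 0.05 (SE 0.08) for Hsp90ab1. The early Hsp90aa1 call ended without control replicate 1 (0.48) or 2 (0.53). With quantile normalization the Hsp90aa1 values were 1.01 and 0.71 and those of Hspa8 0.76 and 0.55. The ratio of 2 genes within a library does not depend on how libraries are scaled to each other by a factor, but Hsp90aa1 shares 39.6% of its windows with Gm12346 and Hsp90ab1 shares none with any gene. The ratio was also lower in SMA than in controls in late total RNA (0.814 to 0.978 against 0.984 to 1.04), with overlap in late polysomal RNA (1.10 to 1.22 against 1.21 to 1.24).

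Within the mitochondrial pair, Hspe1 exceeded Hspd1 in every library, by a ratio of 1.18 to 2.43. The 3 lowest ratios were in early SMA libraries. At day 5 the ratio in SMA was 1.42 and 1.46 in polysomal RNA, against 1.76 and 1.83 in the controls, and 1.18 and 1.79 in total RNA, against 1.89 and 1.93. At day 7 the genotypes overlapped in both fractions. The longest transcripts differ in length, with 964 nt for Hspe1 and 2423 nt for Hspd1, and early fold changes moved with length over all genes. With the length correction the early log2 fold changes were -0.25 for Hspe1 and -0.02 for Hspd1 in total RNA and -0.43 and -0.20 in polysomal RNA.

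**Figure D4:**
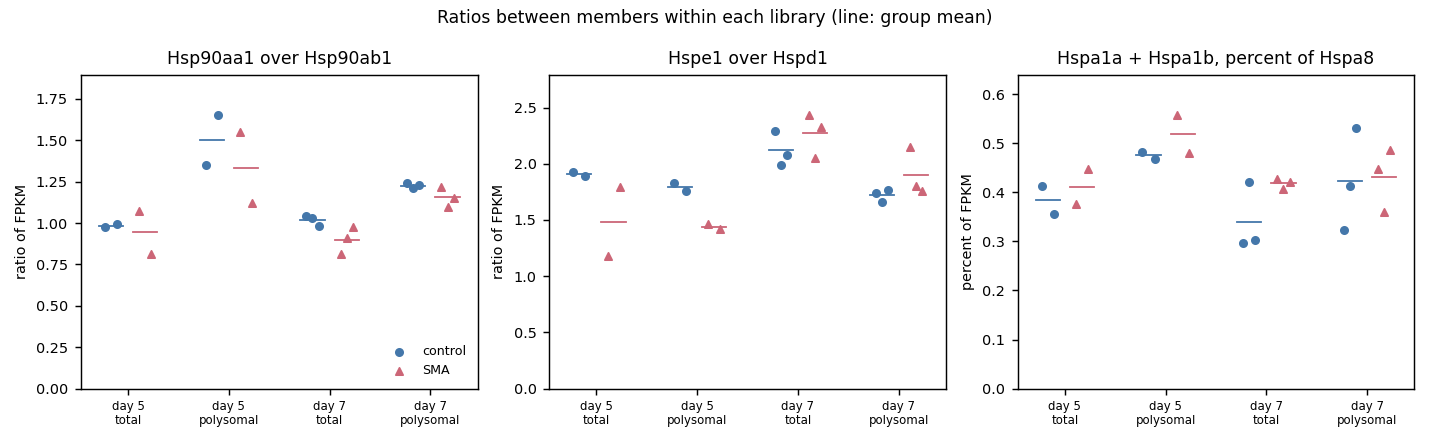
Ratios of FPKM between members within each library (vertical axes, from 0), by postnatal day and RNA fraction. Points are libraries, circles control and triangles SMA, and lines are group means. Hsp90aa1 over Hsp90ab1 lay between 0.814 and 1.07 in total RNA and between 1.10 and 1.65 in polysomal RNA, the 3 lowest ratios of Hspe1 over Hspd1 were in early SMA libraries, and Hspa1a plus Hspa1b stayed at or below 0.557% of Hspa8.

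Between day 5 and day 7, averaged over genotypes, the HSP90 genes rose. Hsp90ab1 went from 528 and 538 FPKM in early control total RNA to 786, 704 and 775 FPKM in late control total RNA, and in SMA from 631 and 666 FPKM to 696, 909 and 810.3 FPKM. Its log2 difference was 0.40 (SE 0.10, limma adjusted p = 0.00433) in total RNA and 0.50 (SE 0.10, adjusted p = 0.000744) in polysomal RNA. For Hsp90aa1 it was 0.40 (SE 0.10, adjusted p = 0.00587) in total RNA and 0.26 (SE 0.10, adjusted p = 0.045) in polysomal RNA. With quantile normalization these rises were smaller, at 0.22 and 0.26 for Hsp90ab1 and 0.24 and -0.06 for Hsp90aa1, so that the total RNA calls of both were lost and the direction of polysomal Hsp90aa1 turned. The polysomal call of Hsp90aa1 also ended without early control replicate 1 or 2, late control replicate 1 or early SMA replicate 2 (0.22 to 0.27).

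Hspe1 rose in total RNA (0.43, SE 0.10, adjusted p = 0.00372), where group means went from 148 to 170 FPKM in controls and from 109 to 169 FPKM in SMA. In polysomal RNA the average over genotypes was 0.07 (SE 0.10), but the genotypes moved in opposite directions. The polysomal means went from 206 to 177 FPKM in controls and from 134 to 171 FPKM in SMA. Hspb1 (0.36, SE 0.15, adjusted p = 0.0571) and Dnajb1 (0.10, SE 0.05, adjusted p = 0.0921) also passed an unadjusted p of 0.05 in total RNA. The Hspb1 call ended with the length correction (0.26) and without early control replicate 1 (0.29), late control replicate 2 (0.32), early SMA replicate 1 (0.20) or late SMA replicate 2 (0.33), and the Dnajb1 call without any 1 of the 6 late replicates or early SMA replicate 1 (0.08 to 0.11). That made 5 of 9 members higher at day 7 in total RNA and 2 of 9 in polysomal RNA, with none lower, against 24.3% and 27.1% of all genes. After adjustment it was 3 of 9 and 2 of 9, against 21.2% and 24.9%. Hspa1a went the other way in total RNA (-0.38, SE 0.17, adjusted p = 0.109), where 24.3% of the genes averaging 0.1 FPKM or more were called lower. Whether the stages were prepared or sequenced together is not given in the sources used here, and stage and such a batch cannot be told apart.

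Of 97 other proteostasis genes in 9 lists (heat shock factors, other HSP70, HSP90 and small heat shock proteins, J-domain proteins, cochaperones, TRiC subunits, mitochondrial proteostasis, classical heat-induced genes), 90 were tested. In early total RNA 2 were called higher and 4 lower in SMA, in early polysomal RNA 2 and 10, in late total RNA 2 and 10, and in late polysomal RNA 2 and 9. None passed adjustment, and the shares of all genes called higher and lower were 4.36% and 3.89%, 5.65% and 6.82%, 4.84% and 4.7%, and 5.35% and 5.38% in the same order. In the heat shock factor list, 3 genes were tested: Hsf1, Hsf2 and Hsbp1, which encodes a heat shock factor binding protein. None of them was called in any of the 4 comparisons. Hsf1 was lower in SMA without overlap in early total (-0.41, SE 0.14), late total (-0.21, SE 0.08) and late polysomal RNA (-0.22, SE 0.10). The genotypes did not overlap for 47.6%, 15% and 16.1% of all genes there. In early polysomal RNA Hsf1 overlapped (-0.08, SE 0.16).

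Fkbp5, an HSP90 cochaperone of steroid receptors and a known glucocorticoid target, was called higher in SMA in all 4 comparisons. In late polysomal RNA it was at 13.9, 13.5 and 14.6 FPKM in controls and at 18.1, 21.2 and 19.7 FPKM in SMA, a log2 fold change of 0.49 (SE 0.07, limma adjusted p = 0.168). The others were 0.50 in early total, 0.67 in early polysomal and 0.53 in late total RNA, and the genotypes did not overlap in any of them. Serpinh1, the collagen chaperone HSP47, was called lower in all 4, by log2 fold changes of -0.65, -0.77, -0.39 and -0.44. Chordc1, an HSP90 cochaperone that is itself heat-inducible, was called lower at day 7, and its values at day 5 (-0.24 in total and -0.37 in polysomal RNA) did not pass. In late polysomal RNA it was at 23.8, 28.6 and 24.4 FPKM in controls and at 18.5, 19.6 and 21.9 FPKM in SMA (log2 fold change -0.35, SE 0.10, adjusted p = 0.357), and in total RNA the log2 fold change was -0.34 (SE 0.07, adjusted p = 0.294). Hspa5, the HSP70 of the endoplasmic reticulum, was called lower in early polysomal RNA, at 194 and 160.0 FPKM in controls and 130 and 111 FPKM in SMA (-0.55, SE 0.15, adjusted p = 0.386), and also in late total (-0.25) and late polysomal RNA (-0.20). Ppid, an HSP90-binding cyclophilin, was called lower in late polysomal RNA (-0.31, SE 0.07, adjusted p = 0.282), in late total RNA (-0.12) and in early total RNA (-0.25). The J-domain gene Dnajc7 was called higher in late polysomal RNA (0.20, SE 0.04, adjusted p = 0.239). Others among the largest called increases were Bag6 in early total (0.23, SE 0.06) and Hspb6 in late total RNA (0.46, SE 0.17). Bag3, below 1 FPKM in these libraries, was higher in early polysomal RNA (0.37, SE 0.12). Among the largest decreases were Hscb (-0.49, SE 0.12) and Cacybp (-0.27, SE 0.08) in early total RNA. Gadd45b in early polysomal (-0.51, SE 0.16) and Dnajb5 in late total RNA (-0.32, SE 0.11) were also among them.

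Markers of vessels, choroid plexus and neutrophils moved with genotype beside these results. Of 7 endothelial markers, 7 were called lower in SMA in each comparison other than early polysomal RNA, where 5 were. Their summed level was 78.9 to 86.0 FPKM in early control total RNA against 38.0 to 41.7 FPKM in SMA, and 67.2 to 78.2 FPKM in late control polysomal RNA against 36.1 to 44.9 FPKM in SMA, and no endothelial marker was at 0. The sum of 7 pericyte and smooth muscle markers was 52.2 to 58.0 FPKM in late control polysomal RNA and 24.9 to 30.9 FPKM in SMA. Of the 6 tested, 5 were called lower there and 4 in late total RNA. At day 5, 1 was called lower in polysomal RNA, and 2 lower and 1 higher in total RNA. The sum of 7 choroid plexus and ependyma markers was higher in SMA at day 7, at 477 to 590.1 FPKM in late control polysomal RNA and 845 to 1127 FPKM in SMA. Most of it was 1 gene, Ttr. A list of 5 liver markers that shares Ttr, with 1 gene tested, summed to 455 to 564 FPKM and 814 to 1092 FPKM there. Of the 6 choroid plexus and ependyma markers tested, 4 were called higher in each late fraction and 0 at day 5. Their day 5 sums overlapped, at 732 to 780 FPKM in control and 418 to 808 FPKM in SMA total RNA. In day 5 polysomal RNA they were 990.5 to 1016 FPKM and 949 to 1072 FPKM. The sum of 7 neutrophil markers was higher in SMA without overlap in all 4 comparisons, at 2.32 to 2.38 FPKM in early control total RNA against 5.59 to 7.28 FPKM in SMA, and at 3.03 to 5.60 FPKM in late control polysomal RNA against 8.11 to 51.9 FPKM in SMA, where Elane was listed at 0 in all 3 libraries. Of the 2 neutrophil markers tested, 1 was called higher in each comparison. The sums of 7 neuron markers overlapped in late polysomal RNA, at 3512 to 3632 FPKM in controls and 3372 to 3968 FPKM in SMA. In early polysomal RNA they were 1388 to 1587 FPKM in controls and 2536 to 2580 FPKM in SMA, with the neuronal tubulin gene Tubb3 listed at 0 in both control libraries. The sum of 16 immediate early genes, which can rise within minutes of handling, was 47.0 to 57.9 FPKM in late control polysomal RNA and 45.5 to 53.6 FPKM in SMA. It overlapped in late total and early polysomal RNA as well. In early total RNA it was lower in SMA without overlap, at 43.0 to 44.3 FPKM in controls and 38.8 to 41.7 FPKM in SMA. The part of these markers in the values of Hsph1, Hspd1, Dnajb1, Hspe1 and Serpinh1 was not tested.

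Across the 20 libraries, many of which have a stage, fraction or genotype in common, correlations between members ranged widely. For these, the mean of each gene within its own stage and fraction was first subtracted from its log2 values. The largest Pearson correlations between members were then 0.767 for Hspa8 with Hspd1 and 0.732 for Hsph1 with Hspd1, and Dnajb1 with Hsph1 had -0.325. The genes most like the mean of the 2 mitochondrial chaperonins were Psma1 (r = 0.969), Tmem208 (0.969) and Glrx3 (0.968). For the constitutive pair they were Pfkm (0.922), Ddb1 (0.920) and Vcp (0.917), and for the 5 tested inducible members Diap3 (0.831), Cbwd1 (0.809) and Rps15a (0.803). These values describe the 20 libraries after stage and fraction means were removed, with genotype differences left in, and carry no test.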

How the data were processed

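RNA was measured in 20 libraries of mouse brain, made with a stranded total RNA kit. The authors aligned the reads to GRCm38.p4 with TopHat2 2.0.14, computed FPKM per gene with Cufflinks 2.2.1 and deposited 1 FPKM value per gene and library, normalized for exon length and mapped fragments; builds and versions are from the submitters' processing notes. The depth behind a value is unknown, and whether counting used strand is not given in the sources used here. All columns were matched to libraries by their labels, and starts were printed 1-based.

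Values were analysed as log2(FPKM + 0.1) with limma 3.58.1 in R 4.3.3 (lmFit, eBayes with a trend) over the 15247 genes averaging 1 FPKM or more, and Benjamini-Hochberg adjusted over all of them. Genotypes were compared within a stage and fraction. TE and its change were fitted over both fractions of a stage, and stage differences over all libraries. A gene was called at an unadjusted p under 0.05, as in the study, which used CuffDiff and Xtail; these need alignments and counts. Fold changes understate those of low genes. All 10 members were named, with 12 comparisons each, and of the other proteostasis genes those with the largest changes per direction among called genes whose genotypes did not overlap. The members and lists were chosen with earlier results of these data known. Nothing in the labels says more of the replicates than that they are separate samples, so p-values measure the spread between these samples. Alternatives were other pseudocounts, filters, scalings, variance models, thresholds, a length correction, a replicate block and leaving out each replicate. Scripts were tested on simulated data.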

Additional observations from a re-analysis of the deposited data

Results flagged for a closer look

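The difference between SMA and control differed between day 5 and day 7 for 2 members by an interaction term at an unadjusted p under 0.05, none of them past adjustment. For Hspe1 the interaction (day 7 minus day 5) was 0.48 in total RNA (SE 0.21, limma adjusted p = 0.406) and 0.56 in polysomal RNA (SE 0.21, adjusted p = 0.27), with the SMA libraries below the controls at day 5 and overlapping with them at day 7. With the transcript length correction these values were 0.22 and 0.36. For Dnajb1 it was 0.27 in polysomal RNA (SE 0.10, adjusted p = 0.266), with overlapping genotypes at day 5 and higher SMA libraries at day 7. Groups of 2 or 3 libraries were too small for a search for single outlying libraries.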

How the results depend on the processing

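Of 587 alternative values for the member changes that were called, 496 kept their direction and their side of the threshold, 90 kept their direction but were no longer past it and 1 reversed, polysomal Hsp90aa1 of day 7 against day 5 with quantile normalization (-0.06, adjusted p = 0.704); the cause was not tested. The numbers of called members moved by more than 1.5 times as follows, with the reported number first. In late total RNA, 1 became 2 with a filter at a mean of 5 FPKM, 3 with quantile normalization, 2 with the length correction, and 0 with an adjusted p, with a p under 0.01 or with the block and length correction together. The shares of all genes called in these settings were 9.07%, 9.51%, 9.76%, 0.111%, 2.86% and 8.44%, against 9.54% in the reported fit. In early polysomal RNA, 1 became 0 without a filter, with an adjusted p or with a p under 0.01, and 3 in 1 model over all libraries. Of all genes, 10.3%, 0.649%, 2.59% and 25% were called in these settings, against 12.5% in the reported fit. In early total RNA, 0 became 1 without a variance trend, with the length correction and in 1 model over all libraries. There, 8.79%, 7.56% and 19.8% of all genes were called, against 8.25% in the reported fit. In late polysomal RNA, 3 became 0 with an adjusted p. It became 2, a move of 1.5 times and not more, in 3 other settings. These were a p under 0.01 and equal medians (Hspd1 lost in each), and the block and length correction together. In the last of them Dnajb1 was lost (0.15, limma adjusted p = 0.572). All-gene shares were 0.0918% with an adjusted p, 3.22% with a p under 0.01, 10.7% with equal medians and 8.71% with block and length correction. The reported fit had 10.7%. For day 7 against day 5 in total RNA, 5 became 3 with quantile normalization, an adjusted p or a p under 0.01, and in polysomal RNA 2 became 1 with a p under 0.01. All-gene shares were 52%, 45.1% and 38.8% in total RNA, against 52.4%, and 44.9% in polysomal RNA, against 57.3%. For stage by genotype in total RNA, 1 became 0 with quantile normalization, an adjusted p, a p under 0.01 or the length correction, and in polysomal RNA 2 became 0 with an adjusted p or a p under 0.01. All-gene shares were 12.6%, 0.0721%, 2.55% and 7.39% in total RNA, against 11.8%. In polysomal RNA they were 0.531% and 3.98%, against 14.8%.

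Leaving out 1 late replicate at a time gave 0 to 2 called members in late total and 2 to 3 in late polysomal RNA. It gave 0 for the change in TE at day 7 and 4 to 6 for polysomal against total RNA at day 7. Of all genes, 6.72% to 11.2% were called in late total and 7.25% to 13.5% in late polysomal RNA. For the change in TE the share was 1.81% to 4.74%, and for polysomal against total RNA it was 35.8% to 38%. Leaving out an early replicate left a lone library in a group, which was assumed to vary like the other group. Counts from those fits are not given.

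Labels give the groups the same replicate numbers, but the data gave no sign of pairing: the correlations of deviations lay between -0.0391 and 0.109 for total and polysomal libraries of a number and between -0.0902 and 0.0327 for control and SMA libraries, and 3 of 10 total libraries correlated best with the polysomal library of their own number. With the replicate block, called members stayed at 0 in early total, 1 in early polysomal, 1 in late total and 3 in late polysomal RNA. Of all genes, 4.77%, 13.2%, 8.6% and 9.37% were called there, against 8.25%, 12.5%, 9.54% and 10.7% in the reported fit. For each change in TE the number stayed at 0, where 2.77% (day 5) and 4.32% (day 7) of all genes were called, against 2.32% and 2.07%. For polysomal against total RNA it stayed at 6 at each stage. There, 31.7% (day 5) and 47.9% (day 7) of all genes were called in either direction, against 35.9% and 41%.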
